A study of Mus musculus with 4 samples.

Results

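The insulin-like growth factor (IGF) family was taken here as 10 genes: the ligands Igf1 and Igf2, the receptors Igf1r and Igf2r, and the binding proteins Igfbp2 to Igfbp7. Its members were taken by name, with every probe set of the Affymetrix 430A array whose annotation gave that gene alone, which yielded 23 probe sets among 22626 analysed, and 10 of 12393 genes. The family was selected on measured values of these arrays, the much lower Igfbp3 signal in XX/Sry and the lower Igf1 signal in tubules, so all ratios are descriptions and none was tested. The samples were seminiferous tubules of adult males, XX/Sry and W/Wv, and whole testes of adult males, XX/Sry and W/Wv, each of these 4 groups being measured on 1 array.

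XX/Sry males are XX animals made male by an Sry transgene, whose promoter and strain background were not given in the sources used here. W/Wv males carry a pair of mutant alleles of Kit, the stem cell factor receptor, in a cross of WB and B6, and were bought. Testes of both kinds are largely empty of germ cells, and both served as recipient males. Germ cell marker signals of these samples, which differed between the genotypes, are given below. Tubules were freed with collagenase (5 mg/ml, 37 °C, 40 min) and washed over a 70 µm strainer. How many animals gave each sample, and whether tubules and whole testis were taken from the same animals, was left unstated in the labels. With 1 array per group no ratio has a replicate check, and the precision of every value is limited by the number of arrays.

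IGF1 and IGF2 are secreted peptides that signal mainly through the receptor tyrosine kinase encoded by Igf1r, which promotes growth and survival of cells. The product of Igf2r, the mannose 6-phosphate receptor, takes up IGF2 for degradation and sorts lysosomal enzymes. The IGF binding proteins hold the ligands outside cells and release or withhold them from the receptor, and IGF1 made within the testis acts on Leydig, Sertoli and germ cells.

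The promoters of the binding protein genes with ratios of at least 2-fold the same way in both pairs of a comparison are shown first, from RefSeq on GRCm38.p6, as the 250 bases before the transcript start, 5′ to 3′. All 10 genes had a window in that table. They are chr11:7213924-7214173 on the minus strand for Igfbp3, and, on the plus strand, chr1:72824230-72824479 for Igfbp2 (the first of 2 starts), chr11:99040994-99041243 for Igfbp4 and chr15:102143936-102144185 for Igfbp6. Capitals mark matches, on either strand, to TATAAA, the core of the TATA box, to TATATA, to the GC box GGGCGG and to CCAAT.
Igfbp3: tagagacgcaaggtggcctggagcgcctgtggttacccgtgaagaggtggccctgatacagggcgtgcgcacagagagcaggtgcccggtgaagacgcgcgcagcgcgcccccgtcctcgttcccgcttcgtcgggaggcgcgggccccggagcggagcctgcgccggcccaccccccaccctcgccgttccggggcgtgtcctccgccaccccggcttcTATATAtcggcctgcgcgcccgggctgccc
Igfbp2: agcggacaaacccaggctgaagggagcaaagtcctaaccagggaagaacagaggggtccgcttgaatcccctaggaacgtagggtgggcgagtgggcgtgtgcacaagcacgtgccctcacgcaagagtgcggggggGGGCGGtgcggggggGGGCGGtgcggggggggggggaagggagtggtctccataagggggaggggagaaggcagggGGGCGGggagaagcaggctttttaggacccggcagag
Igfbp4: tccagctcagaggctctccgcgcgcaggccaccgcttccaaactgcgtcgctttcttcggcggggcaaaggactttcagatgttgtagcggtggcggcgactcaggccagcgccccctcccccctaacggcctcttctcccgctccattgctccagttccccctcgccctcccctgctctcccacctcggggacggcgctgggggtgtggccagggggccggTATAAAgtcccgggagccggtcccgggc
Igfbp6: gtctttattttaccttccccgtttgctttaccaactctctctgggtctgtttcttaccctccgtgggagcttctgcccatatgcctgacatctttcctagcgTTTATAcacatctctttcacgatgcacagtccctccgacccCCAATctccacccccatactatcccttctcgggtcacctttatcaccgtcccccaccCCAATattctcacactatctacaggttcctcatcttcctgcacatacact

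Igfbp3 held TATATA between 30 and 25 bases before its start, and Igfbp4 held TATAAA between 28 and 23 bases before its start. TATATA was added to the search after the Igfbp3 window was read, and it can overlap TATAAA. Igfbp2 held 3 GC boxes and neither TATA form, while Igfbp6 held CCAAT at 2 places and the reverse complement of TATAAA 148 to 143 bases before the start. Over all 32851 windows of this length, 12.4% held TATAAA, 5.25% TATATA, 32.7% the GC box and 33.8% CCAAT. The windows of Igfbp3, Igfbp2, Igfbp4 and Igfbp6 were 73.2%, 67.2%, 69.2% and 49.6% G or C, against a median of 52.4%. A match describes these letters only.

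The deposited values are MAS5 signals, an intensity on a linear scale, and signals of different genes are not compared as levels. Probe sets of a gene were ranked by averaging log2 signals over the 4 arrays, and the top one is called its brightest. For Igfbp5 this picks 1422313_a_at, although 1452114_s_at has the higher mean on the linear scale. These differ in sign for XX/Sry tubules over whole testis (1.47 and -2.34, log2), so medians with 1 probe set per gene depend on that pick. A marker list's summed signal weighs its bright probe sets most. Array medians lay between 156.8 and 182.8 and each array had a trimmed mean signal of 500 (499.95 to 499.96). A background bound was set on each array at the highest signal among 27 control probe sets for bacterial genes: 61 in XX/Sry tubules, 46.1 in W/Wv tubules, 63.9 in XX/Sry whole testis and 76.3 in W/Wv whole testis. Of the 23 family probe sets, 20 lay above the bound on all 4 arrays, 1 on some of them and 2 on none. The genotype labels held on Eif2s3y, of the Y chromosome, with signals of 28.2 in tubules and 9.5 in whole testis of XX/Sry males, against 580.3 and 794.7 in the same preparations of W/Wv males. The spike controls added at hybridisation deviated from their mean over the arrays by a median of 0.46 (log2) in W/Wv tubules. In XX/Sry tubules the median was -0.17, in XX/Sry whole testis -0.18 and in W/Wv whole testis -0.09. A scaling by the spikes is therefore given where it turns the direction of a family probe set, and for some other values. Of the marker genes, 14 of 14 for Sertoli cells lay above the bound in both tubule samples and 13 in both whole testes, where Amh was below it.

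**Figure D1:**
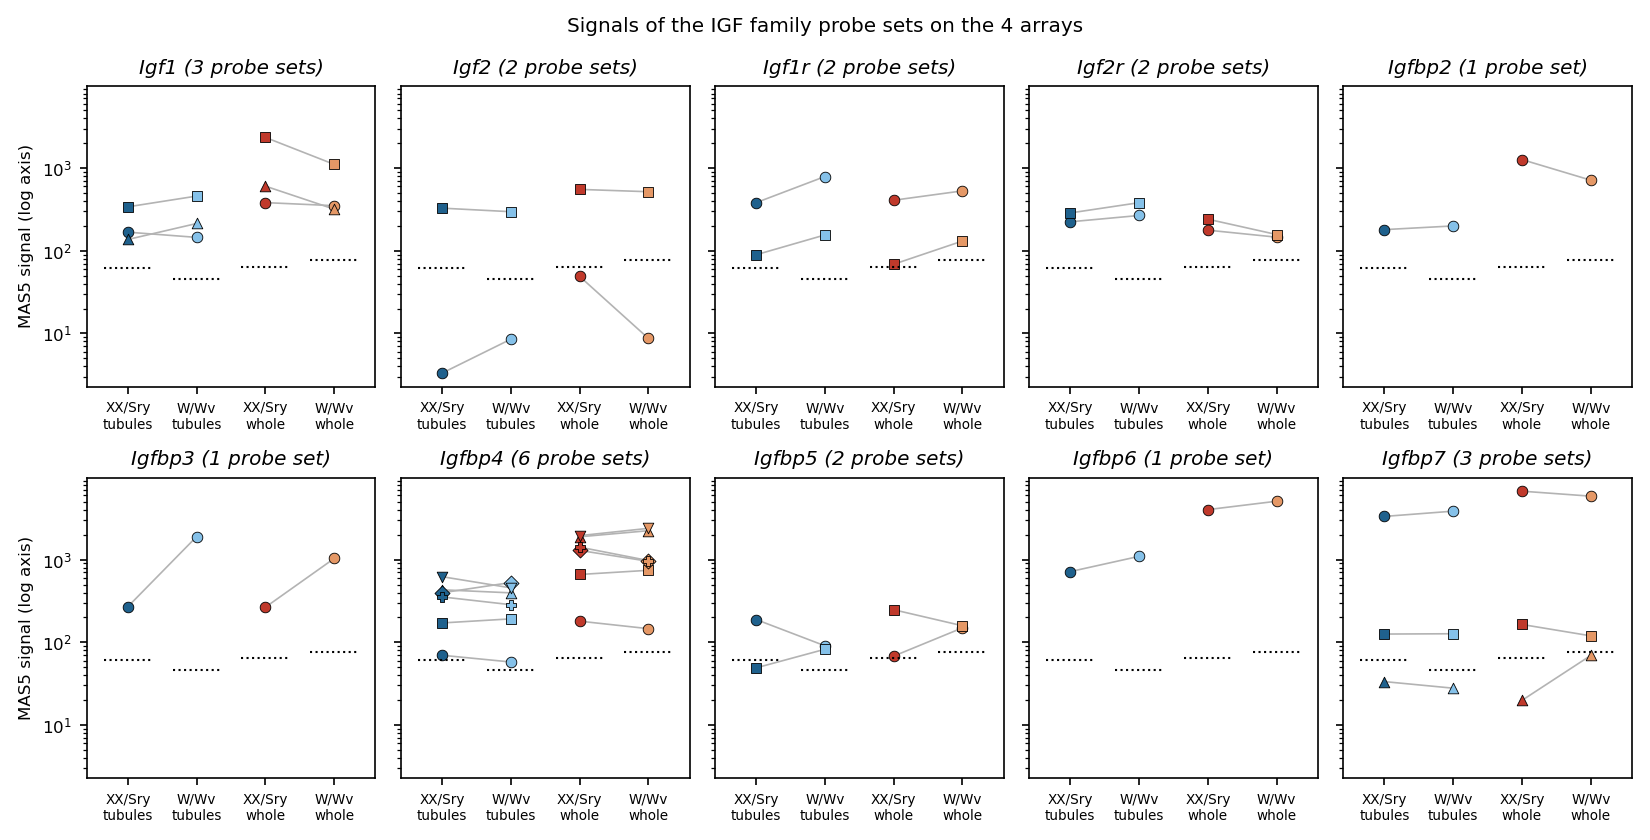
MAS5 signal (log axis) of each IGF family probe set on the 4 arrays, with a marker shape for each probe set of a gene, grey lines joining the genotypes within a preparation, and dotted lines at the background bound of each array. Igfbp3 separates the genotypes in both preparations, whereas Igfbp2, Igfbp4 and Igfbp6 separate tubules from whole testis.

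The first comparison set XX/Sry against W/Wv recipients. Igfbp3, the main carrier of IGFs in serum and a secreted product of many tissues, was lower in XX/Sry in both preparations, and was the 1 family probe set of 23 at least 2-fold lower in both, the threshold in the design text. Over all probe sets, 3.8% were at least 2-fold lower in both and 2.2% higher; 0 family probe sets were higher in both. The other 22 did not pass the same way in both preparations: 11 of 23 lay within 1.5-fold in both, 6 of them from Igfbp4.

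Igfbp3 (1423062_at) had a signal of 265.8 in XX/Sry whole testis, against 1034.5 in W/Wv whole testis. In tubules it had 270.2 in XX/Sry and 1903.7 in W/Wv. Both XX/Sry signals lay below both W/Wv signals, and all 4 were above the background bound. XX/Sry was thus 3.89-fold lower as whole testis and 7.05-fold lower as tubules, or -1.96 and -2.82 on the log2 scale. With the arrays scaled by the spike controls these became -2.05 and -2.07. Among the 11300 probe sets whose brighter array reached its median signal in both preparations, 0.726% were at least 2-fold lower in both and 1.27% higher.

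Marker lists were read beside this difference. Leydig cell markers summed to 61242 in XX/Sry and 38037 in W/Wv for whole testis, and to 24140 in XX/Sry and 10684 in W/Wv for tubules, with a median ratio 1.54-fold and 2.53-fold higher in XX/Sry and 2 of 7 at least 2-fold higher in both preparations. Germ cell markers had summed signals of 921 in XX/Sry and 5014 in W/Wv for whole testis, and of 853 in XX/Sry and 913 in W/Wv for tubules. Of the 8 markers, 4 lay above the bound in XX/Sry whole testis and 8 in W/Wv whole testis. In tubules 4 lay above it in XX/Sry and 5 in W/Wv. For 3 of 8 the XX/Sry signal was lower by 2-fold or more in each preparation. Of these, Stra8 lay below the bound on both tubule arrays (7.7 in XX/Sry and 18.2 in W/Wv). By contrast, 2 of 8 were at least 2-fold higher in XX/Sry tubules. They were Prm1 (155.5 in XX/Sry and 23.8 in W/Wv) and Tnp1, which lay below the bound on both tubule arrays. The germ cell list had a median log2 ratio of -3.30 for whole testis and 0.05 for tubules. In none of the other lists was a member at least 2-fold lower in both, although stroma markers summed to 4945 in XX/Sry and 8555 in W/Wv for tubules, with 5 of 7 at least 2-fold lower there; in whole testis they summed to 21422 in XX/Sry and 16442 in W/Wv. Sertoli markers summed to 101403 in XX/Sry and 121094 in W/Wv for tubules, and to 91123 and 86294 in XX/Sry and W/Wv whole testis. Under spike scaling the median log2 ratio of XX/Sry over W/Wv tubules turned from -0.29 to 0.45 for Sertoli markers. For stroma markers that median moved from -1.13 to -0.39, so both rest on the scaling of the arrays. The part of these cells in the Igfbp3 difference was not tested, and in bulk RNA fewer cells of a type and less RNA per cell cannot be told apart.

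**Figure D2:**
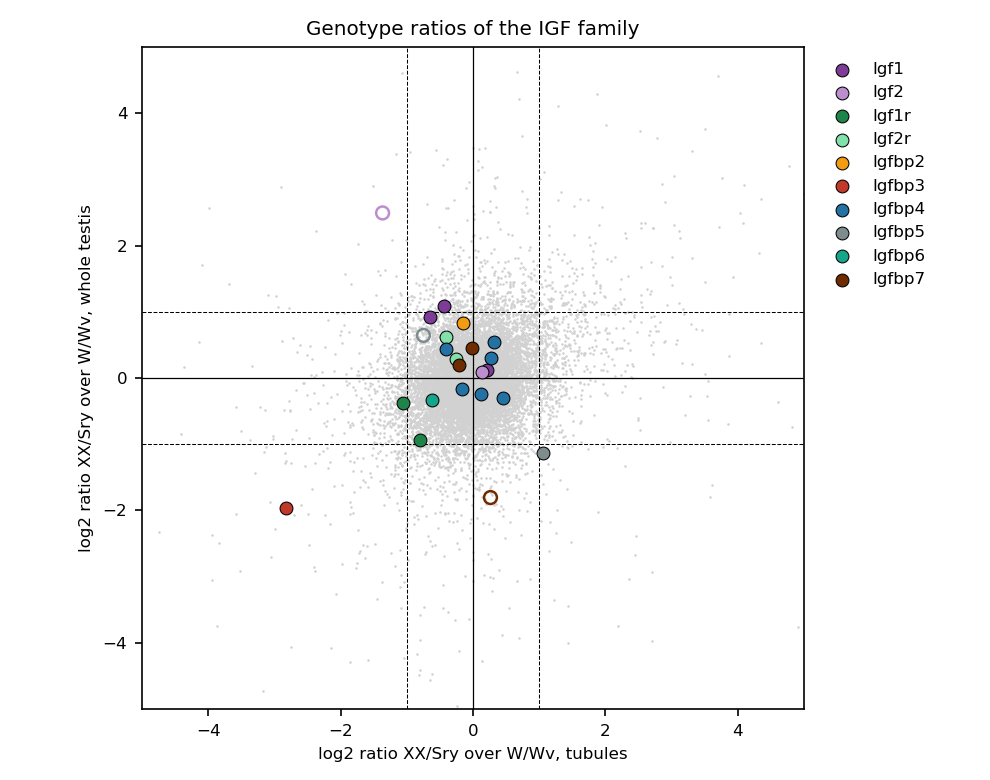
Log2 ratio of XX/Sry over W/Wv in tubules (horizontal) and in whole testis (vertical) for the 23 IGF family probe sets, filled where all 4 signals exceeded the background bound and open otherwise. Grey points are the 13025 probe sets at or above the median signal of at least 1 array that fall within the axes (21 fall outside), and dashed lines mark 2-fold; Igfbp3 alone of the family lies beyond 2-fold lower on both axes.

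Igf1, the ligand that growth hormone induces in liver and that is also made locally in the testis, had 3 probe sets. The brightest (1437401_at) had 2354 in XX/Sry and 1111 in W/Wv for whole testis, and 340 in XX/Sry and 459.5 in W/Wv for tubules. It was thus 2.12-fold higher in whole testis of XX/Sry and 1.35-fold lower in their tubules, although the tubule ratio was 0.31 on the log2 scale, higher in XX/Sry, after scaling by the spikes. A further probe set (1452014_a_at) behaved alike, with 605 in XX/Sry and 319 in W/Wv for whole testis and 137 in XX/Sry and 214 in W/Wv for tubules, and its tubule ratio was 0.10 after spike scaling. The last (1419519_at) differed little between genotypes, with 383 and 351 in XX/Sry and W/Wv whole testis and 168 and 145 in XX/Sry and W/Wv tubules. The probe sets of Igf1 therefore did not share 1 genotype ratio.

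Igf2, the fetal growth ligand expressed from the paternal allele, was nearly level. Its brighter probe set (1448152_at) had 553 in XX/Sry and 518.5 in W/Wv for whole testis, and 328 in XX/Sry and 297 in W/Wv for tubules, 1.07-fold and 1.10-fold higher in XX/Sry. Its other probe set (1415931_at) lay below the bound on all 4 arrays and gives no fold.

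Igf1r, the signalling receptor, had lower signals in XX/Sry from both probe sets. The brighter (1426565_at) had 409 in XX/Sry and 531 in W/Wv for whole testis, and 382.5 in XX/Sry and 792 in W/Wv for tubules, 1.30-fold and 2.07-fold lower. The dimmer (1452108_at) had 68.7 in XX/Sry and 131 in W/Wv for whole testis, and 89.5 in XX/Sry and 155.5 in W/Wv for tubules, 1.91-fold and 1.74-fold lower. The 2 XX/Sry signals of each probe set lay below its 2 W/Wv signals. After scaling by the spikes the tubule ratios were -0.31 and -0.05 on the log2 scale, so the size there rests on the scaling of the arrays.

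Igf2r, expressed in mice from the maternal allele, had opposite ratios in the preparations. Its brighter probe set (1424112_at) had 241 in XX/Sry and 157 in W/Wv for whole testis, and 287 in XX/Sry and 382 in W/Wv for tubules, 1.53-fold higher and 1.33-fold lower. The other (1424111_at) had 178 in XX/Sry and 146 in W/Wv for whole testis, and 224 in XX/Sry and 267 in W/Wv for tubules. Under spike scaling both were higher in XX/Sry tubules, at 0.33 and 0.49 on the log2 scale.

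Among the other binding proteins, Igfbp2, which is made by many embryonic and adult tissues, had 1270 in XX/Sry and 715 in W/Wv for whole testis, 1.78-fold higher, and 180 in XX/Sry and 199.8 in W/Wv for tubules. Igfbp6, which prefers IGF2, had 4034 in XX/Sry and 5098 in W/Wv for whole testis, and 717 in XX/Sry and 1096 in W/Wv for tubules, 1.26-fold and 1.53-fold lower. The tubule ratios of both were above 0 after spike scaling (0.59 and 0.13 on the log2 scale). The 6 probe sets of Igfbp4, an inhibitory binding protein, had log2 ratios between -0.29 and 0.54 in whole testis and between -0.41 and 0.45 in tubules, with 3 of 6 above 0 in whole testis and 4 of 6 in tubules; all 6 were above 0 in tubules under spike scaling.

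Igfbp7, which binds IGFs weakly and is abundant in vessel walls and stroma, had 6746 in XX/Sry and 5870 in W/Wv for whole testis on its brightest probe set (1423584_at), and 3338 in XX/Sry and 3865 in W/Wv for tubules. The ratios of 1.15-fold higher and 1.16-fold lower were small, and the tubule one was 0.53 on the log2 scale, higher in XX/Sry, under spike scaling. Another probe set (1423585_at) had 164 in XX/Sry and 120 in W/Wv for whole testis, and 126 in XX/Sry and 127 in W/Wv for tubules. Under spike scaling its tubule ratio was 0.73 on the log2 scale, higher in XX/Sry. The last (1437804_at) lay below the bound on all arrays.

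Igfbp5, a binding protein that attaches to extracellular matrix, gave contradictory values. One probe set (1422313_a_at) had 68.0 in XX/Sry and 149 in W/Wv for whole testis, and 188 in XX/Sry and 90.6 in W/Wv for tubules, 2.20-fold lower and 2.08-fold higher. The other (1452114_s_at) had 248 in XX/Sry and 158 in W/Wv for whole testis, and 49.0 in XX/Sry and 82.3 in W/Wv for tubules, 1.56-fold higher and at least 1.35-fold lower, since the XX/Sry tubule signal was below the bound. The probe sets pointed opposite ways in both preparations, so no genotype ratio is given for the gene. Names ending in _s_at mark probe sets that can match transcripts of more than 1 gene.

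By single preparation, 2 family probe sets were at least 2-fold higher and 3 lower in XX/Sry whole testis, where 9.14% and 14.8% of all probe sets were, and 1 was higher and 3 lower in XX/Sry tubules, where 11.9% and 12.1% were. These counts include probe sets under the bound. The median log2 ratio over the 10 genes, with the brightest probe set of each, was -0.10 in whole testis and -0.31 in tubules, against -0.10 and -0.0026 over all 12393 genes.

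Tubules were next compared with whole testis of the same genotype, with the share of each cell type in them not measured. Igf1, Igfbp2, Igfbp4 and Igfbp6 were lower in tubules in both genotypes, by 2.42-fold to 7.04-fold on their brightest probe sets. Receptors did not share this: Igf2r was 1.19-fold to 2.43-fold higher in tubules over its probe sets and genotypes. Of the 23 family probe sets, 9 were at least 2-fold lower in tubules in both genotypes and 0 higher, where 5.86% and 1.81% of all probe sets were. By gene these were 4 of 10, against 5.74% of all genes, and 0 higher, against 1.32%.

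Igf1 on its brightest probe set had 340 in XX/Sry tubules, against 2354 in XX/Sry whole testis, 6.92-fold lower. In W/Wv it had 459.5 in tubules and 1111 in whole testis, 2.42-fold lower. The second Igf1 probe set named above (1452014_a_at) was 4.42-fold and 1.49-fold lower in XX/Sry and W/Wv tubules, and the third (1419519_at) 2.28-fold and 2.42-fold. All 3 were lower in tubules of both genotypes, and 2 of the 3 were at least 2-fold lower in both.

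Igf2 had 328 in XX/Sry tubules and 553 in XX/Sry whole testis, and 297 in W/Wv tubules and 518.5 in W/Wv whole testis. It was 1.69-fold and 1.75-fold lower, so both ligands were lower in tubules, Igf2 by less than the 2-fold threshold.

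Igfbp4 gave the most complete set of values, with 6 probe sets. The brightest (1437405_a_at) had 622 in XX/Sry tubules and 1952 in XX/Sry whole testis, and 455 in W/Wv tubules and 2394 in W/Wv whole testis, 3.14-fold and 5.26-fold lower. All 6 were lower in tubules of both genotypes, between 2.59-fold and 4.38-fold in XX/Sry and between 1.81-fold and 5.66-fold in W/Wv, and 5 of 6 were at least 2-fold lower in both. These probe sets share the gene and are not replicates of a condition, and 2 of them carry the ending _x_at, for probes that can match other transcripts. The upper end of both ranges came from 1423756_s_at, whose ending marks possible matches to more than 1 gene.

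Igfbp6 had 717 in XX/Sry tubules and 4034 in XX/Sry whole testis, 5.63-fold lower, and 1096 in W/Wv tubules and 5098 in W/Wv whole testis, 4.65-fold lower. Igfbp2 had 180 in XX/Sry tubules and 1270 in XX/Sry whole testis, 7.04-fold lower, and 199.8 in W/Wv tubules and 715 in W/Wv whole testis, 3.58-fold lower. For both genes each tubule signal lay below each whole testis signal. They are the genes whose promoters, with those of Igfbp3 and Igfbp4, are printed above.

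Igfbp7 was 2.02-fold lower in XX/Sry tubules and 1.52-fold lower in W/Wv tubules on its brightest probe set. Its second probe set was 1.31-fold lower in XX/Sry and 1.06-fold higher in W/Wv tubules, and the W/Wv ratio was -0.78 on the log2 scale under spike scaling. Igfbp3 was level in XX/Sry, with 270.2 in tubules and 265.8 in whole testis, and 1.84-fold higher in W/Wv tubules. That W/Wv ratio, 0.88 on the log2 scale, was 0.02 after scaling by the spike controls, and the XX/Sry ratio was -0.006. The 2 probe sets of Igfbp5 again disagreed: 1422313_a_at was 2.77-fold higher in XX/Sry tubules and 1.65-fold lower in W/Wv tubules, whereas 1452114_s_at was at least 3.87-fold and 1.92-fold lower.

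Igf1r on its brighter probe set had 382.5 in XX/Sry tubules and 409 in XX/Sry whole testis, and 792 in W/Wv tubules and 531 in W/Wv whole testis, 1.07-fold lower and 1.49-fold higher. The XX/Sry ratio was above 0 after median centring, and the W/Wv ratio was -0.28 on the log2 scale under spike scaling. The dimmer Igf1r probe set (1452108_at) was 1.30-fold higher in XX/Sry tubules and 1.19-fold higher in W/Wv tubules. Under spike scaling its W/Wv ratio was -0.61 on the log2 scale. Igf2r on its brighter probe set had 287 in XX/Sry tubules and 241 in XX/Sry whole testis, and 382 in W/Wv tubules and 157 in W/Wv whole testis, 1.19-fold and 2.43-fold higher. Igf2r kept that direction under each of the scalings tried, with a W/Wv ratio of 0.42 on the log2 scale under spike scaling.

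**Figure D3:**
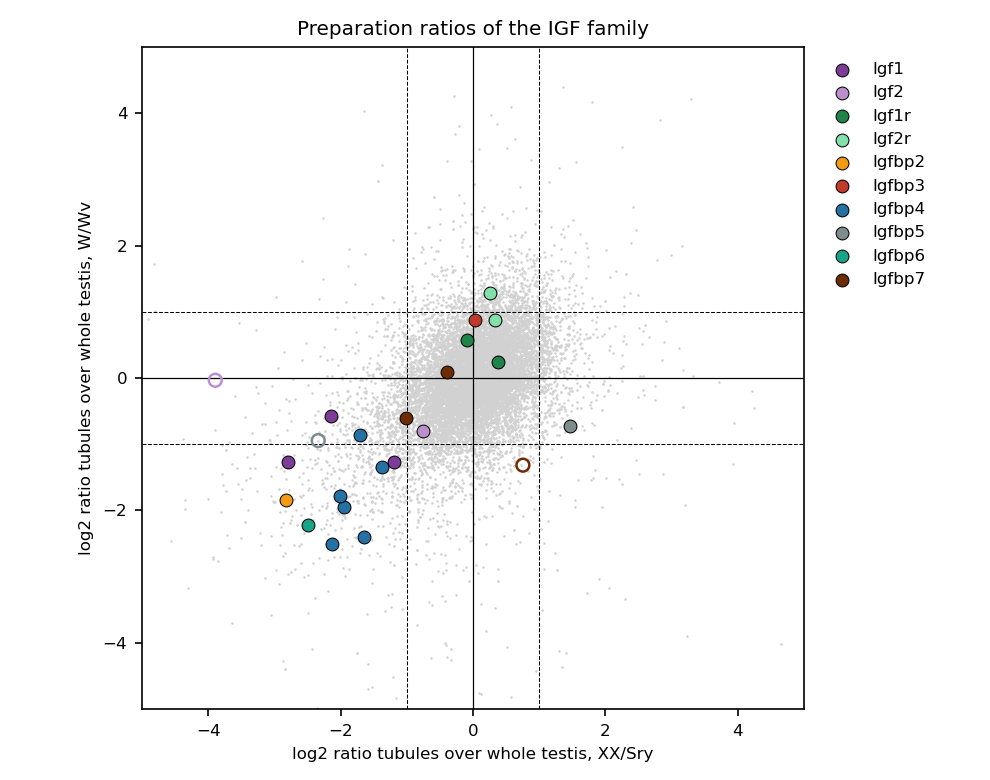
Log2 ratio of tubules over whole testis in XX/Sry (horizontal) and in W/Wv (vertical) for the 23 IGF family probe sets, filled where all 4 signals exceeded the background bound and open otherwise. Grey points are the 13030 probe sets at or above the median signal of at least 1 array within the axes (16 fall outside), and dashed lines mark 2-fold; Igfbp2, Igfbp6, 5 probe sets of Igfbp4 and 2 of Igf1 lie beyond 2-fold lower on both axes.

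Within single genotypes, 14 family probe sets were at least 2-fold lower and 1 higher in XX/Sry tubules, where 14.9% and 10.3% of all probe sets were. In W/Wv tubules 10 were lower and 1 higher, where 19% and 9.31% were. The median log2 ratio over the 10 genes was -0.88 in XX/Sry and -0.76 in W/Wv, against -0.02 and -0.15 over all genes.

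By summed signal, markers of macrophages, Leydig cells and stroma were lower in tubules beside these members. For macrophages, 8 of 10 markers were at least 2-fold lower in both genotypes, and the summed signals were 3892.5 in XX/Sry tubules and 16615 in XX/Sry whole testis, while they were 5066 in W/Wv tubules and 12741 in W/Wv whole testis; Cd163 lay below the bound in both tubule samples. For Leydig cells it was 5 of 7, and the sums were 24140 in XX/Sry tubules and 61242 in XX/Sry whole testis, and 10684 in W/Wv tubules and 38037 in W/Wv whole testis. For fibroblasts and stroma it was 3 of 7, and the sums were 4945 in XX/Sry tubules and 21422 in XX/Sry whole testis, and 8555 in W/Wv tubules and 16442 in W/Wv whole testis. The stroma median log2 ratio was -2.57 in XX/Sry and -0.61 in W/Wv. By the deposited W/Wv signals, Pdgfra (1835.5 in tubules, 1181 in whole testis) and Col1a1 (259.7 and 196.8) were higher in tubules, and the other stroma markers lower. Nr5a1 of the Leydig list was also higher in W/Wv tubules (1480 and 1150).

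The Sertoli, myoid and endothelial lists did not show this by the deposited signals. For Sertoli cells 0 of 14 markers and for peritubular myoid cells 0 of 9 were at least 2-fold lower in both genotypes, and the deposited signals summed higher in tubules, for Sertoli markers 101403 in XX/Sry tubules against 91123 in XX/Sry whole testis. The myoid sums were 17437 in XX/Sry tubules and 13218 in XX/Sry whole testis, and 16316 in W/Wv tubules and 11226 in W/Wv whole testis. Endothelial markers, 0 of 9 of which were lower in both, summed to 1521 in XX/Sry tubules and 1203 in XX/Sry whole testis. Of these, Pecam1, Tie1 and Flt1 lay below the bound in XX/Sry whole testis, and Pecam1, Tie1 and Vwf in W/Wv whole testis. Tie1 was below it in both tubule samples too. Under spike scaling the W/Wv median log2 ratios of these lists turned, to -0.23 for Sertoli, -0.38 for myoid and -0.49 for endothelial markers, where the deposited signals gave 0.63, 0.48 and 0.37. Of the germ cell markers, 8 of 8 were at least 2-fold lower in W/Wv tubules, with a median log2 ratio of -2.32, and 1 of 8 in XX/Sry tubules, with a median of 0.42. That 1 was Stra8 (7.7 in XX/Sry tubules and 56.5 in XX/Sry whole testis). Ddx4, Tnp1, Sall4 and Stra8 lay below the bound on both XX/Sry arrays, so the XX/Sry count and median rest partly on background signal. The part of any of these cells in the lower IGF family signals of tubules was not tested.

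**Figure D4:**
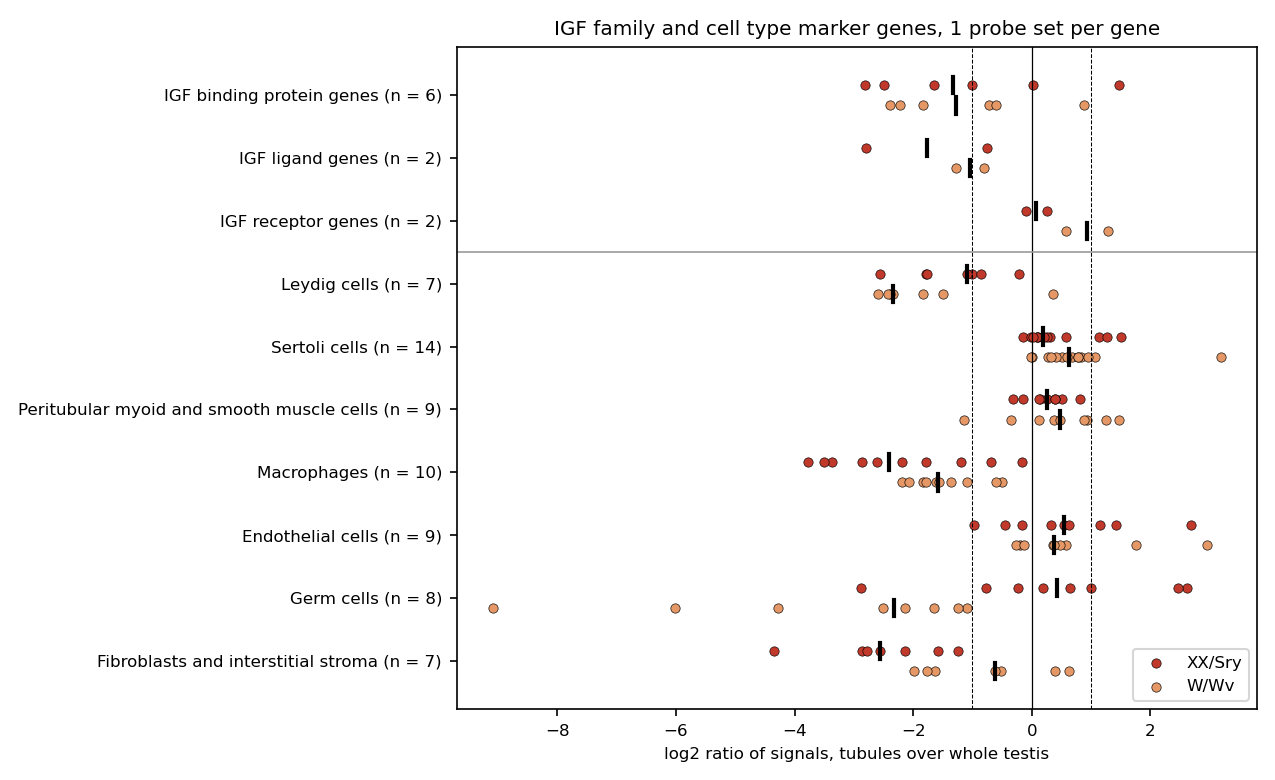
Log2 ratio of tubules over whole testis, with XX/Sry above W/Wv in each row, for IGF family genes (top 3 rows) and for cell type marker lists, with 1 probe set per gene, black bars at the median and dashed lines at 2-fold. The binding proteins have medians of -1.33 in XX/Sry and -1.28 in W/Wv, and the macrophage markers of -2.40 and -1.59. Igfbp5 is drawn from 1422313_a_at, and its other probe set has the opposite sign in XX/Sry.

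The 2 comparisons meet in Igf1, whose genotype ratio on 2 probe sets turned with the preparation by the deposited signals but not after spike scaling. Its highest signal was in XX/Sry whole testis and its lowest in XX/Sry tubules for 2 of its 3 probe sets. Genes with the most similar pattern were sought over the 4 arrays by the Euclidean distance between log2 signals, each gene centred on its own mean, among 7686 genes with a highest signal at or above the median of its array. For Igf1 they were Ppara, Pik3r1, Aif1, Neat1 and Evi2a, at distances of 0.30 to 0.36. Ppara, Pik3r1 and Aif1 lay below the bound in XX/Sry tubules, with signals of 46.1, 36.4 and 52.3. Neat1, an example with all 4 signals above the bound, had 194 in XX/Sry tubules, 269.6 in W/Wv tubules, 1074 in XX/Sry whole testis and 502 in W/Wv whole testis.

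For Igfbp3 the most similar genes were Rab3b, Alcam, Slc6a4, Egfl6 and Batf2, at distances of 0.70 to 0.85, farther than those of Igf1. Rab3b had 436 in XX/Sry and 1577 in W/Wv for tubules, and 289 in XX/Sry and 1061 in W/Wv for whole testis, 3.61-fold and 3.67-fold lower in XX/Sry. Alcam was 4.45-fold lower in XX/Sry tubules and 2.42-fold lower in XX/Sry whole testis. Egfl6 and Batf2 lay below the bound on both XX/Sry arrays. A likeness over 4 arrays is a description.

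The rest of the pathway was followed in a list of 50 genes of IGF and insulin signalling, of which 42 were measured: further binding proteins, insulin and its receptor, adaptors, kinases, growth hormone signalling genes, proteases that act on binding proteins, and their inhibitors. Between genotypes, 0 were at least 2-fold higher and 1 was lower in XX/Sry in both preparations, where 1.98% and 3.22% of all genes were. The median log2 ratio was -0.01 in whole testis and -0.10 in tubules, against -0.10 and -0.0026 over all genes. The gene lower in both was Plagl1, an imprinted zinc finger gene, with 1030 in XX/Sry and 2480 in W/Wv for whole testis and 657 in XX/Sry and 1358 in W/Wv for tubules, 2.41-fold and 2.07-fold lower. Under spike scaling its tubule ratio was -0.31 on the log2 scale and it no longer passed. Its probe set carries the ending _x_at.

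Between preparations, 1 gene of the list was at least 2-fold higher in tubules and 4 were lower in both genotypes, where 1.32% and 5.74% of all genes were, with medians of -0.36 in XX/Sry and -0.22 in W/Wv on the log2 scale, against -0.02 and -0.15 over all genes. Adam12, a metalloprotease that can cleave binding proteins, was lower in tubules, at least 4.18-fold in XX/Sry and 2.60-fold in W/Wv on its brightest probe set. Another Adam12 probe set (1421171_at), above the bound on all 4 arrays, was 2.87-fold and 1.28-fold lower. Pik3r1, a regulatory subunit of the lipid kinase that relays IGF1 receptor signals, was at least 3.42-fold and 2.35-fold lower on its brightest probe set (1425515_at), but its probe sets disagreed: 1425514_at, above the bound on all 4 arrays, was 1.04-fold lower in XX/Sry and 1.11-fold higher in W/Wv tubules. Stc2, an inhibitor of the protease that cleaves Igfbp4, was at least 1.80-fold and 3.38-fold lower on its brightest probe set, since its XX/Sry tubule signal was below the bound. Another Stc2 probe set (1449484_at), above the bound on all 4 arrays, was 1.59-fold and 1.78-fold lower, under 2-fold in both genotypes. The others, named after their values were seen, were Irs3, below the bound on all arrays, and the gene counted as higher, Irs2, above it in W/Wv tubules alone (73.1). Igfbp1, the binding protein outside the 10 members, had signals of 5.7 to 17.7 and lay below the bound on all 4 arrays.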

How the data were processed

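Whole testis and isolated tubules of 2 genotypes were each hybridised for 16 hours to 1 Affymetrix 430A array. The deposited intensity values are MAS5 signals, per the submitters' processing notes, made with Microarray Suite 5.0 per the labels' design text; neither scaling target nor detection calls were given in the sources used here. All 4 value columns were used and 0 left out. Of 22690 probe sets, 64 controls were set aside; of the 22626 others, 20380 had 1 gene symbol, 691 several and 1555 none in the platform's annotation. The 20351 with an Entrez identifier in the RefSeq table (GRCm38.p6) kept their symbols. Where 1 value per gene was needed, the probe set with the highest mean log2 signal was taken.

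Ratios are between single arrays, with no test; called means at least 2-fold the same way in both pairs. Where the dimmer signal lay below the bound, the printed lower limit divides the brighter signal by the higher of both arrays' bounds. Members and lists were chosen with earlier results of these data known. Named genes were all members, pathway genes passing in both pairs with the brighter signal above the bound, and the 5 nearest genes to Igfbp3 and Igf1. Alternatives were median centring, quantile normalisation, a constant of 14.95 (the median bacterial control signal) added, the mean of a gene's probe sets, the bound, 1.5-fold, a median signal filter and, chosen after seeing the data, spike scaling. The counting code was tested on simulated data. Python 3.11.15, numpy 2.4.6 and pandas 2.3.3 were used.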

Additional observations from a re-analysis of the deposited data

Results flagged for a closer look

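Among the 23 family probe sets and the 4 pathway genes named by rule, with the rest of the pathway list not screened, there were 6 probe sets in which the genotype ratio had opposite signs in tubules and whole testis, with a brighter signal above the background bound in each preparation and a double ratio of at least 2-fold; with 1 array per group the difference was not tested. The double ratio, XX/Sry over W/Wv in tubules minus that in whole testis on the log2 scale, was -1.52 for Igf1 (1437401_at) and -1.57 for Igf1 (1452014_a_at). It was -1.03 for Igf2r (1424112_at). For Igfbp5 it was 2.19 on 1422313_a_at and -1.39 on 1452114_s_at, so the gene's probe sets disagreed; the XX/Sry tubule signal of 1452114_s_at (49.0) was below the bound, so its tubule ratio is only a limit (at least 1.35-fold lower). For Pik3r1 (1425515_at) it was -1.36, from -0.64 in tubules and 0.71 in whole testis. The tubule signals (36.4 in XX/Sry and 56.9 in W/Wv) both lay under 61, the higher bound of that pair, so no tubule fold is given. The W/Wv signal was above the bound of its own array (46.1), but the XX/Sry signal was below its own, so the value rests partly on background signal. Scaling by the spike controls, chosen after seeing the data, made the tubule ratio positive for both Igf1 probe sets (0.31 and 0.10), for Igf2r (0.33) and for Pik3r1 (0.10).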

How the results depend on the processing

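No paired analysis was possible because each group had 1 array, and no replicate could be left out. Igfbp3 was the family gene lower in XX/Sry in both preparations, and Igf1, Igfbp2, Igfbp4 and Igfbp6 were lower in tubules in both genotypes, under each of the alternatives run; Igfbp7 joined the tubule genes with spike scaling, and Igf2 and Igfbp7 at 1.5-fold. At 1.5-fold, 2 family probe sets were lower in XX/Sry (the other being Igf1r, 1452108_at). Other values moved. With the mean over probe sets, Igfbp5 in XX/Sry tubules over whole testis was -0.43 on the log2 scale in place of 1.47. Pathway genes lower in XX/Sry numbered 0 with the mean of probe sets and 0 with spike scaling, in place of 1; those higher numbered 1 at 1.5-fold and 1 with spike scaling, in place of 0. Pathway genes lower in tubules numbered 2 after quantile normalisation, 2 with the mean of probe sets, 2 against the bound, 8 at 1.5-fold, 1 with the median signal filter and 9 with spike scaling, in place of 4. Those higher in tubules numbered 0 with the constant added, 0 against the bound, 0 with the filter and 2 at 1.5-fold, in place of 1. Of 200 member gene ratios under 5 scalings or probe set choices, 171 stayed within 1.5-fold of the deposited ratio; spike scaling changed the sign of 10 of 23 probe sets in the tubule genotype comparison, and the cause was not tested.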
